A study of Mus musculus with 6 samples.

Results

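The genes described here encode tumour necrosis factor (TNF), its 2 receptors and the proteins that act directly at those receptors, measured in the macrophage-like mouse line RAW264.7 with and without the prodrug GB2. The 10 genes were taken by name from a deposited table of 28836 genes, and their order here follows their roles: the ligand genes *Tnf* and *Tnfsf9*, the sheddase gene *Adam17*, the receptor genes *Tnfrsf1a* and *Tnfrsf1b*, the adaptor genes *Traf1* and *Traf2*, the ubiquitin ligase genes *Birc2* and *Birc3*, and the death inhibitor gene *Cflar*. Of the 10 genes 8, all but *Tnfsf9* and *Adam17*, carry the KEGG term for TNF signalling in that table, as do 110 genes in all. Poly(A) RNA was sequenced in 3 GB2-treated and 3 untreated libraries of RAW264.7, a line that grew out of a virus-induced mouse tumour. GB2 is a prodrug in which a disulfide that glutathione can cleave links MSA-2, which activates STING, an adaptor of innate immunity, to artesunate, with which the study set out to inhibit TREM2, a receptor of myeloid cells. The study states a dose and a length of exposure for its transwell cultures, which the labels do not carry. The study places the sequenced macrophages in the lower layer of a transwell shared with tumour cells. Whether the untreated cells shared one is not stated, and the labels name no tumour cells. The question addressed here is how GB2-treated cells differ from untreated cells in this receptor system.

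TNF is made by activated macrophages as a membrane-bound trimer, which the metalloprotease ADAM17 can cut loose. It binds TNFR1 (*Tnfrsf1a*), a death domain receptor found on most cells, and TNFR2 (*Tnfrsf1b*), which lacks a death domain and is abundant on myeloid cells and some lymphocytes. At both receptors TRAF2 brings in the ubiquitin ligases cIAP1 (*Birc2*) and cIAP2 (*Birc3*), whose ubiquitin chains carry the signal to NF-kB and to the stress kinases, while the caspase-8 homologue cFLIP (*Cflar*) holds back cell death.

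Libraries held between 62660734 and 77337345 estimated counts, and the 10 genes had between 1052 and 81912 counts per library, so counting error was small for each of them. The macrophage identity of the cells could be read in all 6 libraries: 10 of 10 macrophage markers had at least 1 FPKM (fragments scaled to transcript length and to the size of the library) in untreated cells, and each stayed above 1 FPKM in GB2-treated cells. Their summed level was 7863 to 9046 FPKM in GB2-treated libraries against 16420 to 16960 FPKM in untreated libraries, most of it *Lyz2*. *Itgam* went the other way, at 197 to 208 FPKM against 155 to 160.3 FPKM, and *Ptprc* and *Fcgr1* overlapped between groups. The remaining markers were lower in GB2-treated libraries. By fold, *Cd14* fell least, at 615 to 682 FPKM against 691 to 707 FPKM, and *Mpeg1* most, at 261 to 285 FPKM against 1123 to 1168 FPKM. The part of these differences in the results was not tested. GB2-treated replicates 2 and 3 stood apart from all other libraries in markers of hepatocytes, striated muscle and epithelium. Hepatocyte markers summed to 6.25, 542.9 and 523.7 FPKM in the 3 GB2-treated replicates in order, against 2.07 to 2.65 FPKM in untreated libraries. Striated muscle markers summed to 0.38, 208.8 and 297.8 FPKM, against 0.21 to 0.41 FPKM, and epithelial markers to 0.98, 52.05 and 59.3 FPKM, against 1.06 to 1.45 FPKM. Kidney tubule markers, mostly *Kap*, were found in every library, at a sum of 102.9, 249.0 and 189.8 FPKM, against 47.9 to 81.0 FPKM. In that list GB2-treated replicate 1 too was above every untreated library, and the source of these transcripts was not tested. Of 9 hepatocyte markers none was at 0 in all libraries, and *Alb*, *Apoa1* and *Ahsg* were at 0 in GB2-treated replicate 1 and in every untreated library. The changes of the 10 genes are therefore also given with GB2-treated replicate 1 as the only treated library, as are those of most other genes described. The study calls its replicates biological and its experiments independent, while the labels do not say whether they came from separate cultures, so the p-values cover the spread between these libraries, whatever its source. In RNA from a whole culture, fewer cells of a kind and less RNA per cell cannot be told apart.

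The system moved unevenly. *Tnf*, *Tnfrsf1b*, *Birc3* and *Traf1* rose in GB2-treated cells by 2.25-fold to 3.74-fold. A gene was called at a false discovery rate (FDR) below 0.05 in edgeR's quasi-likelihood test together with a log2 change of at least 1 in size, which is a 2-fold change and the threshold of the study. Of the 10 genes 4 were called higher and 0 lower, where 13.4% of all 17124 tested genes were called higher and 7.73% lower. By FDR alone all 10 differed, with 6 higher and 4 lower, beside 26.8% of tested genes higher and 29.6% lower at that threshold, and at an unadjusted p under 0.05 the count was likewise 6 higher and 4 lower. The DESeq2 Wald test called 4 of the 10 higher and 0 lower, and limma on log2(FPKM + 1) called 3 higher and 0 lower. In all 10 genes the groups did not overlap in scaled counts, 6 with the GB2-treated libraries on top and 4 with them below, and over all tested genes such gaps were found in 29.3% with GB2-treated on top and 34% with GB2-treated below. The 6 genes outside the call thus had shifts that were larger than the spread between libraries but under 2-fold. The median log2 change of the 10 was 0.58, beside 0.01 over all tested genes.

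**Figure D1:**
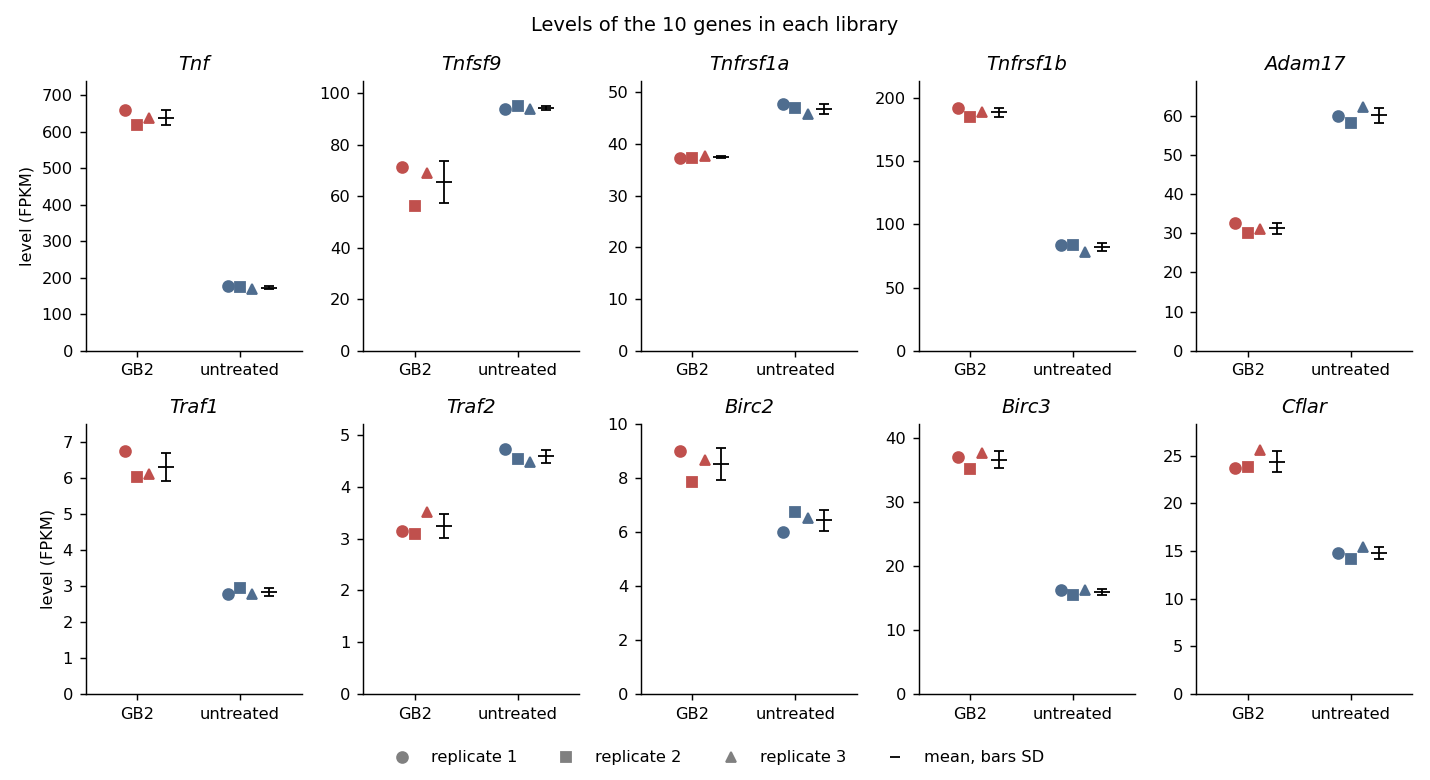
Level of each of the 10 genes (vertical axis, FPKM, starting at 0) in the 3 GB2-treated libraries (left, red) and the 3 untreated libraries (right, blue), with 1 marker shape per replicate and the mean with SD beside each group. In every panel the 3 GB2-treated points lie apart from the 3 untreated points, above them in 6 genes and below them in 4.

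The start regions of genes that rose are shown because these genes moved together. They are the 250 bases before the RefSeq start of *Tnf* (chr17:35202008-35202257), *Tnfrsf1b* (chr4:145246871-145247120) and *Traf1* (chr2:34961773-34962022), on the GRCm38.p6 build and all on the minus strand, written 5′ to 3′ as transcribed. Capitals mark matches to the motifs searched on both strands: the TATA box letters TATAAA, the GC box letters GGGCGG, which on the printed strand read as their complement where the box lies on the other strand, the AP-1 letters TGANTCA and the NF-kB consensus.
Tnf: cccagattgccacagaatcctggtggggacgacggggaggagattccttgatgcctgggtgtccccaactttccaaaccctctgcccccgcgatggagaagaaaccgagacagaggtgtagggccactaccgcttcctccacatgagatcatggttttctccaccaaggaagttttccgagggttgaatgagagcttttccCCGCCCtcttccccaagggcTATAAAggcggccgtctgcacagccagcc
Tnfrsf1b: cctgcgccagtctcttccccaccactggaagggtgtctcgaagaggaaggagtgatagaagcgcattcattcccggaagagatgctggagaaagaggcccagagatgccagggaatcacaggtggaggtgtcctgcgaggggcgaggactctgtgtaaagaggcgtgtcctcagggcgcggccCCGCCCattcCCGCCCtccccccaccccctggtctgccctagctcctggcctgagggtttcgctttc
Traf1: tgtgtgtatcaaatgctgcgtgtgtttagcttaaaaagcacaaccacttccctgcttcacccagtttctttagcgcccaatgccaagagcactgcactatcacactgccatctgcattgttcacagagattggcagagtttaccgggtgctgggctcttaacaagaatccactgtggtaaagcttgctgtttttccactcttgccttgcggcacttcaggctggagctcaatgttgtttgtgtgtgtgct

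The *Tnf* window held a TATA box at -29 to -24 and a GC box on the opposite strand at -49 to -44, counted from the start. The *Tnfrsf1b* window held 2 GC boxes on the opposite strand, at -67 to -62 and -57 to -52, and none of the other letters. The *Traf1* window, whose start lies 175 bases upstream of that in the deposited table, held no match, nor did the window of *Birc3*, whose letters are not printed because 16 of its bases lie in exons of *Birc3* itself. Within these windows the 4 genes that rose thus had no motif of this search in common. Bases outside the windows were not searched, so a missing match does not show that a gene lacks the motif. Matches were also found for genes that were not called. The GC box letters lay in the window of *Adam17* and in a window of *Birc2*, and the TATA letters in that of *Cflar*. The windows of *Traf2* and *Tnfrsf1a* held no match. Over all 32851 RefSeq start regions of the same length the TATA letters were found in 12.4%, the GC box in 32.7%, the AP-1 letters in 6.75% and the NF-kB consensus in 7.25%. Of the 10 genes, 9 matched an entry of the RefSeq table by symbol, and *Tnfsf9* did not. A match of letters is a description only.

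*Tnf* showed the largest change of the 10 genes. The *Tnf* gene (ENSMUSG00000024401, chr17:35199381-35202007 on mm10, minus strand) stood at 659, 619 and 636 FPKM in the 3 GB2-treated replicates in order, against 176, 173 and 169 FPKM in untreated replicates 1, 2 and 3. All 3 GB2-treated libraries lay more than 3-fold above every untreated library, and the replicates of a group lay close together. *Tnf* was among the most abundant transcripts of these cells, at rank 65 to 66 by FPKM in GB2-treated libraries and at rank 241 to 258 in untreated libraries. Its mean was 638.0 ± 20.4 FPKM in GB2-treated cells and 172.8 ± 3.78 FPKM in untreated cells (SD, n = 3 each). The log2 change was 1.9 ± 0.04 (SE; edgeR FDR = 9.37e-08), a 3.74-fold rise that was larger in size than that of 88.9% of tested genes. With GB2-treated replicate 1 alone the log2 change was 2.01.

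*Tnfsf9*, the other ligand gene, did not follow *Tnf*. It encodes 4-1BB ligand, a costimulatory member of the TNF family on antigen-presenting cells. *Tnfsf9* (ENSMUSG00000035678, chr17:57105325-57107757, plus strand) had 71.4, 56.2 and 68.9 FPKM in the 3 GB2-treated replicates in order, against 93.8, 95.0 and 93.8 FPKM in untreated replicates. All 3 GB2-treated libraries were below the untreated ones, and replicate 2 was the lowest. The log2 change was -0.51 ± 0.08 (edgeR FDR = 0.000972), under the fold threshold, and -0.32 with GB2-treated replicate 1 alone. Of the exonic bases of *Tnfsf9*, 14.9% are shared with a gene model on the other strand (Gm11110), so its level is uncertain to that extent if strand was not used in counting.

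The ratio of the 2 ligand transcripts differed accordingly. *Tnf* over *Tnfsf9*, in FPKM within a library, was 9.23, 11 and 9.23 in GB2-treated replicates and 1.88, 1.83 and 1.80 in untreated replicates. An exact permutation test of this ratio gave p = 0.1 (two-sided, n = 3 each), the smallest p that 3 against 3 libraries allow. Ratios of 6 gene pairs were compared in this way, each without overlap between groups and each with the same p, and the adjusted p over the 6 pairs was 0.1, so the design cannot take any of them below 0.05.

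*Adam17*, the gene of the protease that releases TNF from the membrane, was the most reduced of the 10 genes but stayed inside the fold threshold. *Adam17* (ENSMUSG00000052593, chr12:21323509-21373632, minus strand) had 32.7, 29.9 and 31.1 FPKM in GB2-treated replicates, against 59.9, 58.2 and 62.2 FPKM in untreated replicates. Every GB2-treated library was close to 30 FPKM and every untreated one close to 60 FPKM. The log2 change was -0.92 ± 0.05 (edgeR FDR = 2.72e-06), a 1.9-fold lower level, and -0.79 with GB2-treated replicate 1 alone. *Adam17* shares 4.3% of its exonic bases with *Iah1* on the other strand.

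Of 6 genes around ADAM17 edgeR called 1 higher and 0 lower, beside 13.4% and 7.73% over all tested genes. By FDR alone 3 were higher and 2 lower, and before adjustment p was under 0.05 for the same numbers, 3 and 2. The DESeq2 Wald test called 2 higher and 0 lower, and limma on log2(FPKM + 1) called 0 in either direction. *Rhbdf2* encodes iRhom2, the inactive rhomboid that carries ADAM17 to the surface of myeloid cells, and had 36.0, 37.6 and 35.9 FPKM in GB2-treated replicates against 21.8, 22.2 and 20.2 FPKM in untreated replicates (log2 change 0.79 ± 0.06, edgeR FDR = 1.63e-05, not called; 0.83 with GB2-treated replicate 1 alone). *Frmd8*, whose product stabilises iRhom proteins, and *Adam10*, a related sheddase, were lower by FDR alone, with log2 changes of -0.57 ± 0.06 and -0.35 ± 0.07. *Rhbdf1* was higher by FDR alone, with a log2 change of 0.66 ± 0.1. *Frmd8*, *Adam10* and *Rhbdf1* were singled out after their values were seen. *Timp3*, an inhibitor of ADAM17, was the called gene. It had 1.5, 2.69 and 2.58 FPKM in the 3 GB2-treated replicates in order, against 1.16, 1.01 and 0.89 FPKM in untreated replicates. The 2 GB2-treated libraries with the higher *Timp3* values are those with raised hepatocyte, striated muscle and epithelial markers. The log2 change of 1.16 ± 0.23 (edgeR FDR = 0.00354) was 0.64, under the fold threshold, with GB2-treated replicate 1 alone.

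The 2 TNF receptors moved in opposite directions. *Tnfrsf1b*, encoding TNFR2 (ENSMUSG00000028599, chr4:145213463-145246870, minus strand), had 192, 185 and 189 FPKM in GB2-treated replicates, against 83.9, 83.5 and 78.4 FPKM in untreated replicates. The 3 GB2-treated libraries were more than 2-fold above each untreated library, and the log2 change was 1.22 ± 0.05 (2.33-fold, edgeR FDR = 7.24e-07). *Tnfrsf1a*, encoding TNFR1 (ENSMUSG00000030341, chr6:125349362-125361874, plus strand), had 37.3, 37.4 and 37.7 FPKM in GB2-treated replicates, against 47.7, 47.1 and 45.8 FPKM in untreated replicates. Its GB2-treated values were nearly identical and all under the untreated ones, with a log2 change of -0.31 ± 0.04 (edgeR FDR = 0.000297) that was under the fold threshold. With GB2-treated replicate 1 alone the log2 changes were 1.31 for *Tnfrsf1b* and -0.25 for *Tnfrsf1a*. *Tnfrsf1b* was thus the more abundant receptor transcript in both groups, at 5.03 ± 0.0971 times the FPKM of *Tnfrsf1a* in GB2-treated cells and 1.75 ± 0.0319 times in untreated cells (SD, n = 3 each; exact permutation p = 0.1).

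The adaptors gave the same kind of contrast at lower levels. TRAF2 is the adaptor that both TNF receptors need, and TRAF1, whose gene is a known target of NF-kB, binds TRAF2 but lacks the RING domain of the other TRAF proteins. *Traf1* (ENSMUSG00000026875, chr2:34941750-34961597, minus strand) had 6.75, 6.04 and 6.13 FPKM in GB2-treated replicates, against 2.77, 2.96 and 2.77 FPKM in untreated replicates. All GB2-treated values were more than 2-fold above all untreated values, and the log2 change was 1.17 ± 0.06 (2.25-fold, edgeR FDR = 3.41e-06). *Traf1* was the 1 member whose call depended on the method, at a log2 change of 0.93 with limma on log2(FPKM + 1), a scale that shrinks changes of low values. *Traf2* (ENSMUSG00000026942, chr2:25517982-25546940, minus strand) had 3.15, 3.09 and 3.52 FPKM in GB2-treated replicates, against 4.74, 4.54 and 4.49 FPKM in untreated replicates (log2 change -0.48 ± 0.07, edgeR FDR = 0.000659, not called). The order of the pair thus turned over, with *Traf1* at 2.14, 1.95 and 1.74 times the FPKM of *Traf2* in GB2-treated replicates and at 0.584, 0.652 and 0.617 times in untreated replicates (exact permutation p = 0.1, n = 3 each). With GB2-treated replicate 1 alone the log2 changes were 1.33 for *Traf1* and -0.46 for *Traf2*.

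Of the ubiquitin ligases, *Birc3* rose and *Birc2* was not called. They are neighbours on chromosome 9, and cIAP2, the product of *Birc3*, is the one whose gene NF-kB is known to induce. *Birc3* (ENSMUSG00000032000, chr9:7848699-7873170, minus strand) had 37.0, 35.1 and 37.6 FPKM in GB2-treated replicates, against 16.3, 15.4 and 16.2 FPKM in untreated replicates. The GB2-treated libraries lay more than 2-fold above each untreated library, with a log2 change of 1.21 ± 0.04 (2.32-fold, edgeR FDR = 3.23e-07). *Birc2* (ENSMUSG00000057367, chr9:7818227-7837063, minus strand) had 9.01, 7.88 and 8.69 FPKM in GB2-treated replicates, against 6.01, 6.76 and 6.54 FPKM in untreated replicates. These groups were closest to each other among the 10 genes after *Tnfrsf1a* by fold, yet did not overlap, and the log2 change of 0.42 ± 0.07 (edgeR FDR = 0.0011) was not called. *Birc3* over *Birc2* was 4.30 ± 0.179 in GB2-treated cells and 2.49 ± 0.211 in untreated cells (SD, n = 3 each; exact permutation p = 0.1). With GB2-treated replicate 1 alone the log2 changes were 1.29 for *Birc3* and 0.57 for *Birc2*.

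**Figure D2:**
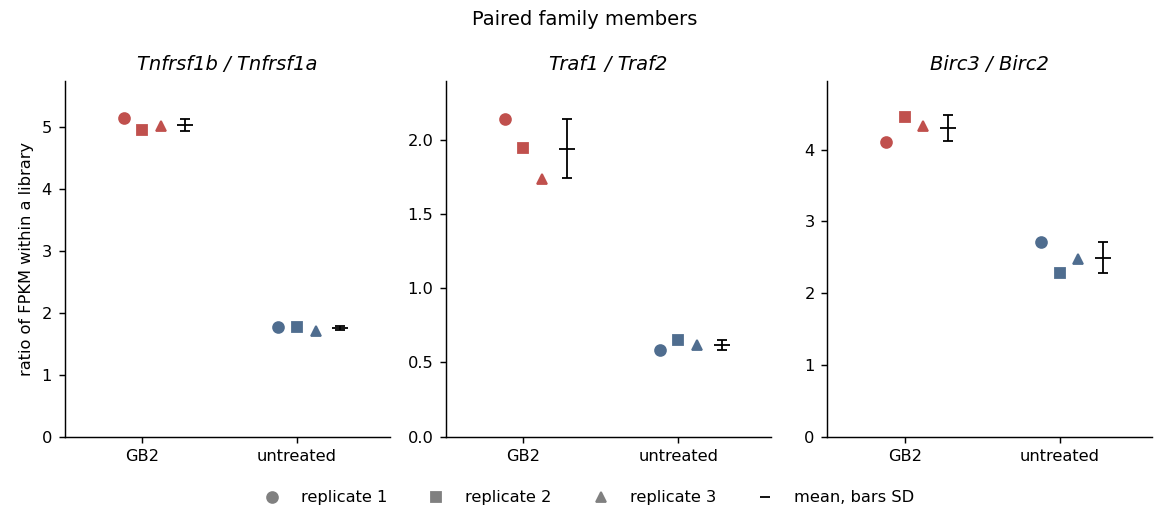
Ratio of FPKM of 2 related genes within each library (vertical axis, starting at 0), for the receptor, adaptor and ubiquitin ligase pairs, in GB2-treated libraries (left, red) and untreated libraries (right, blue), with the mean and SD beside each group. All 3 ratios are higher in each GB2-treated library than in any untreated library, and *Traf1* over *Traf2* lies above 1 only in GB2-treated libraries.

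*Cflar*, encoding the death inhibitor cFLIP (ENSMUSG00000026031, chr1:58711508-58758884, plus strand), had 23.7, 23.8 and 25.7 FPKM in GB2-treated replicates, against 14.9, 14.2 and 15.4 FPKM in untreated replicates. Its log2 change was 0.74 ± 0.04 (1.67-fold, edgeR FDR = 5.45e-06) and 0.76 with GB2-treated replicate 1 alone, so it was higher in 3 of 3 GB2-treated libraries without reaching the fold threshold. *Casp8*, the initiator caspase that cFLIP resembles and restrains, had 21.9, 19.9 and 20.04 FPKM in GB2-treated replicates, against 18.5, 18.8 and 19.1 FPKM in untreated replicates (log2 change 0.15 ± 0.05, edgeR FDR = 0.0366, not called; 0.3 with GB2-treated replicate 1 alone). *Cflar* over *Casp8* was 1.19 ± 0.0992 in GB2-treated cells and 0.788 ± 0.0287 in untreated cells (SD, n = 3 each; exact permutation p = 0.1).

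**Figure D3:**
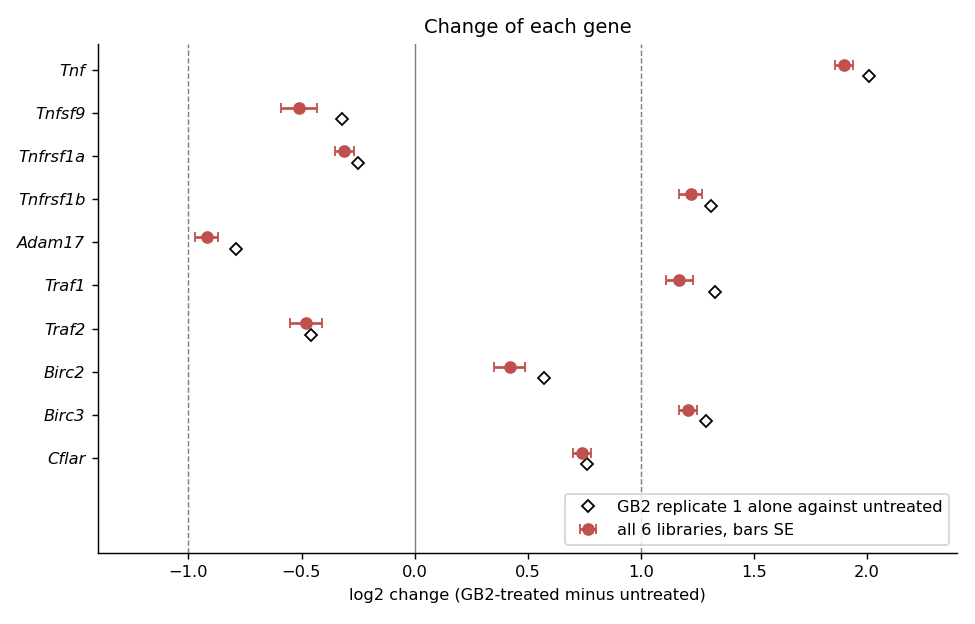
Log2 change of each of the 10 genes, GB2-treated minus untreated (horizontal axis), from all 6 libraries (red points, bars are SE) and from GB2-treated replicate 1 set alone against all 3 untreated libraries (open diamonds). Dashed lines mark a log2 change of 1 in either direction; *Tnf*, *Tnfrsf1b*, *Traf1* and *Birc3* lie beyond it in both, and no gene changes sign.

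The receptor that pairs with *Tnfsf9* showed a far larger change than any of the 10 genes. *Tnfrsf9* encodes 4-1BB, a costimulatory receptor best known from activated T cells and also made by activated myeloid cells. *Tnfrsf9* (ENSMUSG00000028965) had 76.9, 69.5 and 75.5 FPKM in GB2-treated replicates, against 1.52, 1.83 and 1.39 FPKM in untreated replicates. The untreated libraries were just above 1 FPKM, and the GB2-treated libraries reached the level of the ligand transcript, with a log2 change of 5.55 ± 0.11 (47.0-fold, edgeR FDR = 4.78e-08) and 5.68 with GB2-treated replicate 1 alone. Of 7 T cell and NK cell markers 6 were under 1 FPKM in all libraries, with *Cd3d* at 0 throughout, and the list summed to 2.58 to 3.07 FPKM in GB2-treated libraries against 1.63 to 1.76 FPKM in untreated libraries, nearly all of it *Lck*. *Tnfsf9* over *Tnfrsf9* was 0.929, 0.809 and 0.913 in GB2-treated replicates and 61.7, 51.9 and 67.5 in untreated replicates (exact permutation p = 0.1, n = 3 each). Among RefSeq starts of *Tnfrsf9*, 1 had the NF-kB consensus at -43 to -33 and the AP-1 letters at -15 to -9, and its letters are not printed because 81 of the 250 bases lie in exons of other transcripts of the gene.

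**Figure D4:**
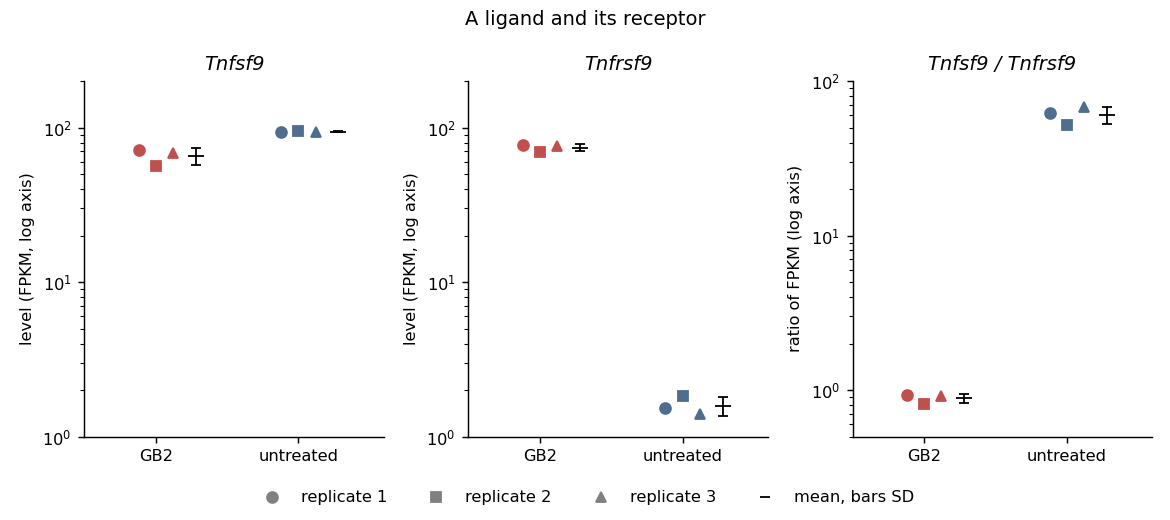
Levels of the ligand gene *Tnfsf9* and its receptor gene *Tnfrsf9* (FPKM, log axes) and their ratio within a library (log axis) in GB2-treated libraries (left, red) and untreated libraries (right, blue), with the mean and SD beside each group. The ligand stays between 56.2 and 95.0 FPKM, while the receptor is at 69.5 to 76.9 FPKM in GB2-treated libraries and at 1.39 to 1.83 FPKM in untreated libraries.

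The wider pathway around the 10 genes was called about as often as the whole table. Of 56 further tested genes of TNF signalling 6 rose, 6 fell and 44 were not called, beside 13.4% of all tested genes called higher and 7.73% called lower. Their median log2 change was -0.1, beside 0.01 over all tested genes. By FDR alone 18 were higher and 24 lower, beside 26.8% and 29.6% of all tested genes. With GB2-treated replicate 1 alone 6 were called higher and 4 lower. Of 13 genes for complex I, which forms at TNFR1 on the membrane, edgeR, the DESeq2 Wald test and limma on log2(FPKM + 1) each called 0, beside the same 13.4% and 7.73%. By FDR alone 4 of the 13 were higher and 4 lower, close to the shares of the whole table. Before adjustment, p was under 0.05 for 4 higher and 5 lower genes. *Ripk1*, the kinase that carries the ubiquitin chains, had 6.34, 6.18 and 6.37 FPKM in GB2-treated replicates, against 12.1, 11.6 and 11.8 FPKM in untreated replicates (log2 change -0.89 ± 0.04, edgeR FDR = 1.08e-06), close to but inside the fold threshold, and -0.82 with GB2-treated replicate 1 alone. *Tradd*, the adaptor that binds the death domain of TNFR1, had 9.62, 8.05 and 9.65 FPKM in GB2-treated replicates, against 12.2, 10.8 and 9.47 FPKM in untreated replicates. For *Tradd* the groups overlapped (log2 change -0.23 ± 0.11, edgeR FDR = 0.119), and the log2 change was -0.09 when GB2-treated replicate 1 stood alone.

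Of 9 genes on deubiquitination and feedback 1 rose and 1 fell, beside 13.4% and 7.73% over all tested genes. By FDR alone 1 was higher and 6 were lower, beside 26.8% and 29.6% over all tested genes. *Tnfaip3*, which encodes the feedback deubiquitinase A20, rose and had 13.9, 14.2 and 14.8 FPKM in GB2-treated replicates, against 5.95, 5.59 and 5.09 FPKM in untreated replicates (log2 change 1.39 ± 0.06, edgeR FDR = 1.79e-06). *Otulin*, a deubiquitinase for linear chains, fell and had 10.9, 10.6 and 10.6 FPKM in GB2-treated replicates, against 23.1, 23.5 and 23.0 FPKM in untreated replicates (log2 change -1.10 ± 0.05, edgeR FDR = 1.63e-06). *Cyld*, a further deubiquitinase of this complex, had a log2 change of -0.18 ± 0.06 (edgeR FDR = 0.0425) and was not called. The other 6 of the 9 were not called either. The log2 changes with GB2-treated replicate 1 alone were 1.41 for *Tnfaip3*, -1.01 for *Otulin* and -0.14 for *Cyld*.

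The death branch held 2 genes that rose and 2 that fell among 9, beside 13.4% and 7.73% over all tested genes. *Ripk3* and *Mlkl*, the kinase and the membrane-breaking effector of necroptosis, both rose. *Ripk3* had 21.2, 21.2 and 21.5 FPKM in GB2-treated replicates, against 8.05, 9.04 and 8.63 FPKM in untreated replicates (log2 change 1.33 ± 0.06, edgeR FDR = 1.29e-06). *Mlkl* had 28.6, 28.8 and 27.6 FPKM in GB2-treated replicates, against 8.41, 9.97 and 9.49 FPKM in untreated replicates (log2 change 1.62 ± 0.07, edgeR FDR = 1.49e-06). Both genes were more than 2-fold higher in every GB2-treated library than in any untreated one, and with GB2-treated replicate 1 alone the log2 changes were 1.38 for *Ripk3* and 1.7 for *Mlkl*. The 2 that fell belong to the apoptotic arm: *Fadd*, the adaptor that recruits caspase-8, had 1.59, 1.32 and 1.37 FPKM in GB2-treated replicates, against 3.93, 4.67 and 3.86 FPKM in untreated replicates (log2 change -1.52 ± 0.13, edgeR FDR = 3.89e-05). *Bid*, the BH3 protein that caspase-8 cleaves, had 7.73, 6.68 and 7.37 FPKM in GB2-treated replicates, against 23.5, 22.6 and 23.3 FPKM in untreated replicates (log2 change -1.65 ± 0.05, edgeR FDR = 4.26e-07). Neither *Fadd* nor *Bid* overlapped between groups, and with GB2-treated replicate 1 alone their log2 changes were -1.30 and -1.50.

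In the kinase branch edgeR called 0 of 11 genes higher and 2 lower, where 13.4% and 7.73% of all tested genes were called. Before adjustment, p was under 0.05 for 4 higher and 6 lower genes, the DESeq2 Wald test called 0 higher and 2 lower, and limma on log2(FPKM + 1) called 0 higher and 1 lower. *Mapk14*, encoding the stress kinase p38 alpha, had 14.7, 14.0 and 14.1 FPKM in GB2-treated replicates, against 31.6, 29.7 and 29.5 FPKM in untreated replicates (log2 change -1.07 ± 0.05, edgeR FDR = 1.38e-06), and -0.96, just inside the threshold, with GB2-treated replicate 1 alone. The other called gene, *Map2k6*, a kinase that activates p38, stayed under 1 FPKM in all libraries (log2 change -1.4 ± 0.38, edgeR FDR = 0.0157), and its call was lost with GB2-treated replicate 1 alone (FDR = 0.0783), without untreated replicate 1 (FDR = 0.0797) and without untreated replicate 2 (FDR = 0.0684).

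Genes that control the *Tnf* message moved in both directions. *Zfp36*, which encodes tristetraprolin, a protein that binds AU-rich elements and speeds the decay of *Tnf* mRNA, rose to 43.8, 42.9 and 45.0 FPKM in GB2-treated replicates, against 15.1, 14.9 and 13.2 FPKM in untreated replicates (log2 change 1.62 ± 0.06, edgeR FDR = 6.37e-07). *Zc3h12a*, encoding the endonuclease regnase-1, rose to 69.6, 67.2 and 72.2 FPKM in GB2-treated replicates, against 14.5, 15.3 and 14.0 FPKM in untreated replicates (log2 change 2.27 ± 0.05, edgeR FDR = 6.91e-08). By contrast *Zfp36l2*, a relative of *Zfp36*, fell to 17.9, 15.7 and 14.2 FPKM in GB2-treated replicates, against 49.4, 52.5 and 51.1 FPKM in untreated replicates (log2 change -1.66 ± 0.09, edgeR FDR = 4.17e-06). All 3 genes were apart in every library, with log2 changes of 1.69 for *Zfp36*, 2.33 for *Zc3h12a* and -1.43 for *Zfp36l2* when GB2-treated replicate 1 stood alone. The other 5 of the 8 genes of this group were not called, so that 2 of 8 rose and 1 fell, beside 13.4% and 7.73% over all tested genes. By FDR alone 3 of the 8 were higher and 3 lower, beside 26.8% and 29.6% over all tested genes.

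**Figure D5:**
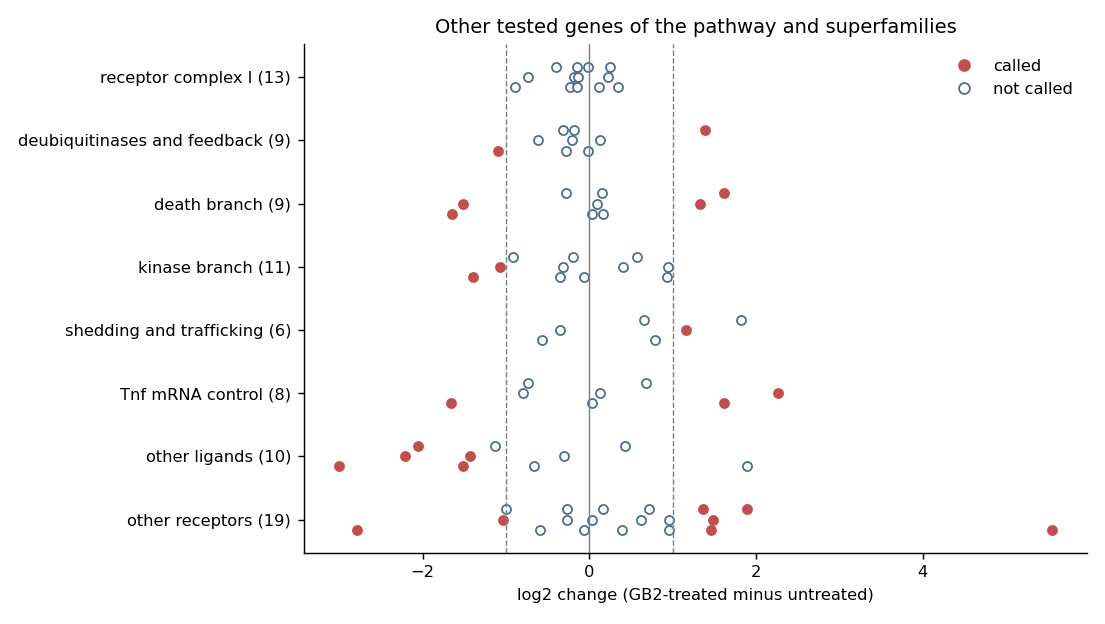
Log2 change, GB2-treated minus untreated (horizontal axis), of every tested gene of the wider TNF pathway by role and of the other ligands and receptors of the superfamily, with the number of tested genes in brackets; filled red points were called and open blue points were not, and dashed lines mark a log2 change of 1 in either direction. The complex I genes all lie inside the dashed lines, the called ligands all lie on the lower side, and *Tnfrsf9* is the point at 5.55.

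Among other ligands of the TNF superfamily, edgeR called 0 of 10 tested genes higher and 5 lower, beside 13.4% and 7.73% over all tested genes. The median log2 change of the 10 was -1.28. At an unadjusted p under 0.05 and at an FDR below 0.05 with no fold threshold 0 were higher and 6 lower, and the DESeq2 Wald test called 1 higher and 5 lower. Limma on log2(FPKM + 1) called 0 higher and 2 lower, and after leaving out GB2-treated replicate 1 edgeR called 2 higher. Only *Tnfsf12* and *Tnfsf13* of the 5 that fell reached 1 FPKM. *Tnfsf12*, encoding TWEAK, had 7.11, 5.63 and 5.26 FPKM in GB2-treated replicates, against 25.0, 27.5 and 23.8 FPKM in untreated replicates (log2 change -2.06 ± 0.13, edgeR FDR = 8.37e-06). *Tnfsf13*, encoding the B cell factor APRIL, had 2.07, 2.38 and 2.59 FPKM in GB2-treated replicates, against 6.97, 7.14 and 6.36 FPKM in untreated replicates (log2 change -1.52 ± 0.13, edgeR FDR = 4.34e-05). Neither gene overlapped between groups, and their log2 changes were -1.76 and -1.63 with GB2-treated replicate 1 alone. *Tnfsf4*, *Cd40lg* and *Fasl* were not found under these symbols among the deposited genes, so they were not analysed here.

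Among other receptors of the superfamily 5 of 19 tested genes rose and 2 fell, beside 13.4% and 7.73% over all tested genes. The median log2 change of the 19 was 0.39, and with GB2-treated replicate 1 alone 6 were called higher and 2 lower. Leaving out untreated replicate 1 gave 3 higher and 1 lower, and leaving out GB2-treated replicate 2 or untreated replicate 3 also gave 1 lower. Besides *Tnfrsf9*, *Cd40*, the receptor through which T cells license macrophages and dendritic cells, was the only called receptor that averaged 1 FPKM or more. *Cd40* had 21.0, 17.7 and 18.1 FPKM in GB2-treated replicates, against 6.92, 7.25 and 6.32 FPKM in untreated replicates (log2 change 1.49 ± 0.09, edgeR FDR = 5.44e-06), with a log2 change of 1.7 when GB2-treated replicate 1 stood alone. *Fas*, a death receptor, was just under the fold threshold, with 11.6, 10.2 and 11.3 FPKM in GB2-treated replicates against 5.41, 6.03 and 5.70 FPKM in untreated replicates (log2 change 0.96 ± 0.08, edgeR FDR = 3.72e-05). *Fas* was singled out after its values were seen. The called receptor *Tnfrsf21* had 0.24, 1.21 and 0.82 FPKM in the 3 GB2-treated replicates in order, against 0.17 to 0.23 FPKM in untreated libraries. GB2-treated replicate 1 was close to the untreated level, with 74 counts against 75, 71 and 59 in untreated replicates. The rise was thus in GB2-treated replicates 2 and 3. They are the ones with raised hepatocyte, striated muscle and epithelial markers, and the part of such transcripts in this call was not tested.

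The 3 genes whose pattern over the 6 libraries was most like that of *Tnf* were *Ptges*, *Bsg* and *Acod1*. Likeness was the root mean square difference of log2(CPM + 1), where CPM is the count relative to a common library size, each gene centred on its own mean, among 6748 other tested genes that averaged at least 5 FPKM. The differences were 0.032, 0.033 and 0.035 on the log2 scale for *Ptges*, *Bsg* and *Acod1*. *Ptges*, prostaglandin E synthase, had 21.7, 20.5 and 20.1 FPKM in GB2-treated replicates, against 5.45, 5.25 and 5.37 FPKM in untreated replicates. *Bsg*, the cell surface glycoprotein basigin, had 493, 441 and 482 FPKM in GB2-treated replicates, against 130.4, 124.9 and 121.0 FPKM in untreated replicates. *Acod1*, which makes itaconate in activated macrophages, had 499, 452 and 469 FPKM in GB2-treated replicates, against 124 FPKM in each untreated replicate. The 6 libraries fall into 2 groups, so likeness over them mainly says that these genes changed by about the same fold as *Tnf*.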

How the data were processed

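Poly(A) RNA of 3 GB2-treated and 3 untreated RAW264.7 libraries, made with dUTP and sequenced as paired ends, was analysed, and groups and replicate numbers came from the labels. Tools named in the submitters' processing notes are StringTie 2.1.6, HISAT2 2.2.1, cutadapt 1.9, edgeR and DESeq2, with the build mm10. What each tool did, how strand was handled, how reads were counted and which annotation was used is not given in the sources used here. Gene-level estimated counts were deposited by the authors as whole numbers, 1 per gene and library, and these were used as they stood. Low counts pile up at 4 (895 genes in GB2-treated replicate 1, against 425 with a count of 3 and 298 with 5), so counts divided by 4 were tried as an alternative. The authors also deposited FPKM values, which were used for levels and ratios.

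The test was edgeR 4.0.16 in R 4.3.3 (quasi-likelihood F test, TMM scaling, default expression filter, no covariate, Benjamini-Hochberg adjustment over 17124 genes). The SE of a log2 change is its size over the square root of F. The test was first tried on simulated counts, with the spread of the untreated libraries in both groups. The wider spread between GB2-treated libraries was not simulated. Alternatives used DESeq2 1.42.0 size factors and Wald test, limma 3.58.1, no filter, omitted libraries and a replicate block. No library was taken for a second deposit of another, since counts differed by more than counting noise in every pair of a group. Chi-square was taken on counts divided by 4, without genes of few counts. It was 18.97 to 46.59 times its degrees of freedom between GB2-treated libraries, and 3.84 to 7.12 times between untreated libraries. The 10 genes and the lists around them were chosen with earlier results of these data known. Named genes are the 10; per list, called genes of at least 1 FPKM up to the 8 largest changes; 10 core pathway genes; and the 3 genes most like *Tnf*. *Otulin*, *Timp3*, *Mapk14*, *Map2k6*, *Frmd8*, *Adam10*, *Rhbdf1*, *Fas* and *Tnfrsf21* were added after their values were seen. Motifs and gene overlaps were read from RefSeq and GENCODE M21 on GRCm38, the assembly of mm10.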

Additional observations from a re-analysis of the deposited data

How the results depend on the processing

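All 10 genes kept the sign of their change in all 15 alternatives that gave a value, and *Tnf*, *Tnfrsf1b* and *Birc3* were called in every one. *Traf1* was not called with limma on log2(FPKM + 1), filtered at a mean of 1 FPKM or not (log2 change 0.93 in both). By FDR alone, without the fold threshold, 4 of the 10 were lower. With any 1 library left out, 4 of the 10 were again called higher and 0 lower, and *Tnfsf9*, which has the widest spread, ranged from -0.6 to -0.39 (log2).

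Counts over all genes depended more on the method than the 10 genes did. Against 2300 higher and 1324 lower, limma on log2(FPKM + 1) gave 603 and 611, limma on log2(FPKM + 0.1) gave 860 higher, limma on log2(FPKM + 1) with no filter gave 598 and 614, and FDR alone gave 4585 and 5065. With GB2-treated replicate 1 as the only treated library, whose spread was taken to be that of the untreated libraries, 1432 were higher. Leaving out 1 library gave 1486 to 3728 higher, the highest without GB2-treated replicate 1 and the lowest without untreated replicate 2. Higher genes made up 63.5% of calls, against 49.7%, 47.3% and 49.3% in the limma fits 49.9% with GB2-treated replicate 1 alone, 66.5% with DESeq2 size factors, 70.5% with the DESeq2 Wald test and 70.9% without GB2-treated replicate 1.

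For the further pathway genes FDR alone gave 18 higher and 24 lower. For other ligands 1 was higher with no expression filter and 1 with the DESeq2 Wald test, 0 to 2 when a library was left out (2 without GB2-treated replicate 1), and 2 were lower in each limma fit. For other receptors, each limma fit gave 2 higher and 0 lower, FDR alone gave 8 and 6, and omission of 1 library gave 3 to 6 higher (3 without untreated replicate 1) and 1 to 3 lower (3 without GB2-treated replicate 3, and 1 without GB2-treated replicate 2, untreated replicate 1 or untreated replicate 3). DESeq2 size factors and counts divided by 4 each gave 1 lower receptor. Apart from the fold threshold, the omitted libraries and the settings named, the causes were not tested.

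The replicate numbers are shared between groups, but nothing says that they pair the libraries. Same-numbered libraries deviated together only weakly (r = 0.021, 0.05 and 0.014 over 17124 genes), although each GB2-treated library correlated best with its own number. With the replicate block 1776 genes were called higher and 1264 lower, and the 10 genes again gave 4 higher and 0 lower.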
